A study of Homo sapiens with 6 samples.

Results

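The heme biosynthesis genes examined here were 9 protein-coding genes of the 19864 annotated on chromosomes 1 to 22 and X: ALAS1, ALAS2, ALAD, UROS, UROD, CPOX, PPOX, FECH and SLC25A37. For each gene, run-on sequencing peaks were taken when they lay within 500 bp of one of its annotated transcript starts (start peaks). Peaks within 50 kb of the gene body that had no annotated start of any gene within 500 bp were taken as distal. The cells were untreated K562, an established human leukaemia line with erythroid and myeloid features that the labels call lymphoblastoid. Precision run-on sequencing labels the RNA held by engaged RNA polymerase, and the deposited lists hold dREG peaks, which mark the divergent initiation found at active promoters and enhancers. There were 3 groups of 2 biological replicates: the published protocol on 1M cells with 11 cycles of PCR (PRO-seq 1M), a quick protocol at the same input and cycle number (qPRO-seq 1M), and that quick protocol with 250k cells and 14 cycles (qPRO-seq 250k). The labels attach 1 peak list to both replicates of a group, so no replicate spread could be measured and the groups were not tested against each other.

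Heme is built in steps that begin and end in the mitochondrion. ALAS1 or ALAS2 joins glycine and succinyl-CoA to aminolevulinic acid, ALAD couples that product to porphobilinogen, and UROS, UROD, CPOX and PPOX shape the porphyrin ring, into which FECH inserts iron. SLC25A37 (mitoferrin-1) carries iron across the inner mitochondrial membrane of erythroid cells. ALAS1 is the housekeeping form of the first enzyme and ALAS2 the erythroid form. ALAD and UROS are each known to have an upstream promoter used in most tissues and a second, erythroid promoter downstream of it.

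The lists held 24707 peaks (PRO-seq 1M), 38177 peaks (qPRO-seq 1M) and 15562 peaks (qPRO-seq 250k), and the read depth behind them is unknown. Each peak score is the authors' value and has no fixed unit. It is given below as a score percentile, the share of peaks in the same list that score at or below it. Because the lists differ in length, percentiles from different lists are set side by side and show no change between protocols. As a check of the labelled cell type, start peaks were found in all 3 lists for 5 of 5 erythroid markers (GATA1, TAL1, KLF1, EPOR and NFE2), against 43.1% of all protein-coding genes. Of 4 B lymphoid markers, EBF1 had a start peak in both 1M lists, and CD79A, MS4A1 and PAX5 had none. The T lymphoid markers had none (0 of 3), and of 3 myeloid markers only CEBPA had one, in both 1M lists. These counts cover the markers reported here and are not the full marker lists.

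The promoters of 5 members are shown because they carry the contrasts described below: the housekeeping and the erythroid first enzyme, the gene with the alternative promoters, the member with the highest score percentiles, and the member found in 1 list. Each line gives the 250 bases before the most upstream RefSeq start (GRCh38.p14), read 5′ to 3′ on the strand of the gene. Capitals mark matches to GATAA, the core of the site bound by GATA factors, or to TGAGTCA, a site bound by NFE2 and AP-1. TTATC is GATAA read on the opposite strand.
ALAS1: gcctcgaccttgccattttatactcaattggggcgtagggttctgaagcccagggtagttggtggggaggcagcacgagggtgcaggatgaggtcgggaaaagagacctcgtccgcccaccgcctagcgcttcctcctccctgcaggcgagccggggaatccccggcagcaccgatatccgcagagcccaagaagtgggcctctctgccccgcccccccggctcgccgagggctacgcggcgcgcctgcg
ALAS2: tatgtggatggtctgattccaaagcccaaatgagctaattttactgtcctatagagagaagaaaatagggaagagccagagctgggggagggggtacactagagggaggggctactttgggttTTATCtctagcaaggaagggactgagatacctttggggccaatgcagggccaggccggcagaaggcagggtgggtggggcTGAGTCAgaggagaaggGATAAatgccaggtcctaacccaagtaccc
ALAD: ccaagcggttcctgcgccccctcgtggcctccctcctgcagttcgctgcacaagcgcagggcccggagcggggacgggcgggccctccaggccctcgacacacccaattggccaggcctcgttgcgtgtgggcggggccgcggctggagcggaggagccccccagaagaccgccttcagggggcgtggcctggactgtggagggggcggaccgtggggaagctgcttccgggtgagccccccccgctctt
CPOX: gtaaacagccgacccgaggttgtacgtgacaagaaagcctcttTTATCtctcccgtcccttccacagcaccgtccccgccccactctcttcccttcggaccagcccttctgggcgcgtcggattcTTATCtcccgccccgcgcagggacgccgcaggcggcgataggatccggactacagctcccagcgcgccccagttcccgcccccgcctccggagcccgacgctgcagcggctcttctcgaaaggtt
FECH: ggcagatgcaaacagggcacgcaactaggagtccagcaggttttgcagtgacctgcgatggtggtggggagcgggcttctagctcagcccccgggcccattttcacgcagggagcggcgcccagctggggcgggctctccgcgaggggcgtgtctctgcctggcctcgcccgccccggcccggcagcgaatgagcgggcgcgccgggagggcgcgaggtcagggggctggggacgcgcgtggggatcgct

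These windows lie at chr3:52197833-52198082 (ALAS1, plus strand), chrX:55030978-55031227 (ALAS2, minus strand), chr9:113401285-113401534 (ALAD, minus strand), chr3:98593612-98593861 (CPOX, minus strand) and chr18:57586703-57586952 (FECH, minus strand). In ALAS1, ALAS2, ALAD and CPOX, all 250 bases lay inside the start peak of every list. In FECH, 158 of the 250 bases lay inside its PRO-seq 1M peak.

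At the level of presence, the pathway was almost fully represented. A start peak was found for 9 of 9 members in PRO-seq 1M, where 52.9% of all protein-coding genes had one. In qPRO-seq 1M the count was 8 of 9 against 54.5% of genes, and in qPRO-seq 250k it was 8 of 9 against 44.0%. The same 8 members had a start peak in all 3 lists, which held for 43.1% of genes. The remaining member, FECH, had a start peak in PRO-seq 1M alone, as did 1.68% of genes (334 genes). High rank was not a common feature of the members. The median of their highest start-peak percentiles was 67.0% in PRO-seq 1M, 86.0% in qPRO-seq 1M and 57.5% in qPRO-seq 250k. In qPRO-seq 1M the SLC25A37 value is 92.0%, from a peak centred 825 bp upstream. Its peak at the start itself stood at 60.7%, which would lower that median. Over all genes with a start peak, the medians were 76.4%, 80.7% and 68.2%.

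**Figure D1:**
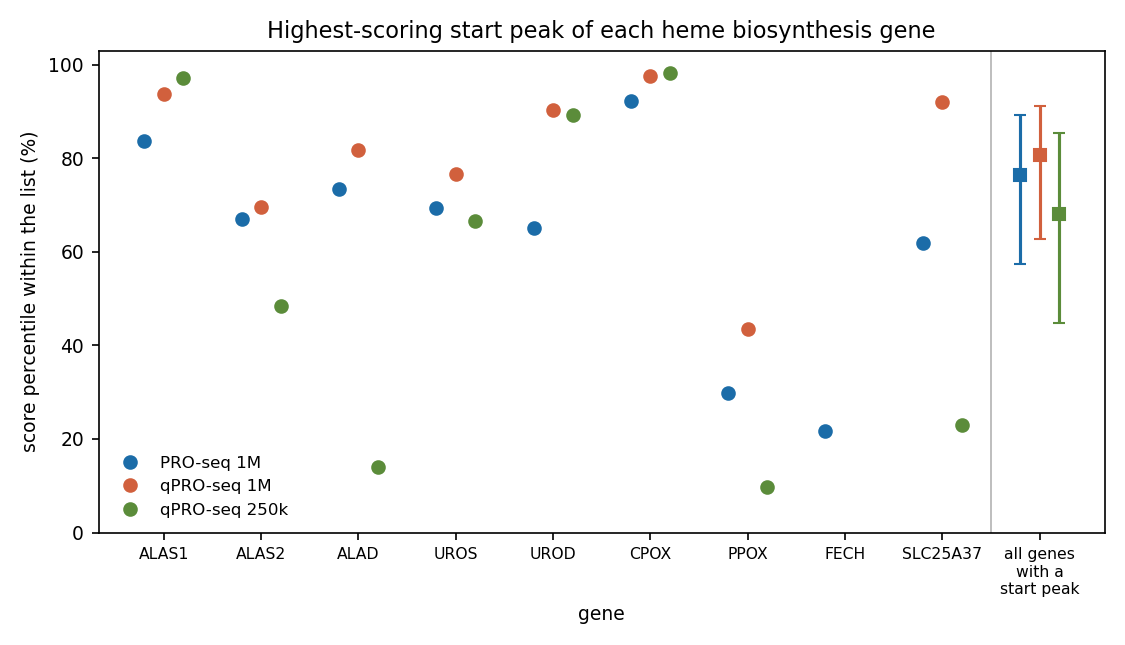
Score percentile within its list (vertical axis, %) of the highest-scoring start peak of each gene (points, one colour per list). Squares with bars at the right are the median and quartiles over all genes with a start peak. The SLC25A37 point for qPRO-seq 1M, at 92.0%, is a peak centred 825 bp upstream of the start. CPOX and ALAS1 lie highest in the lists, PPOX low in all 3, and FECH has a point for PRO-seq 1M only, at 21.6%.

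The first step showed the housekeeping and the erythroid enzyme together. ALAS1 had 1 start peak per list, at 83.8% in PRO-seq 1M, 93.7% in qPRO-seq 1M and 97.3% in qPRO-seq 250k. Their centres lay 44 to 74 bp downstream of the most upstream annotated start. ALAS2 also had 1 start peak per list, at 67.0%, 69.5% and 48.5% in the same order. Its centres lay 16 to 106 bp upstream of its first annotated start. ALAS1 thus stood above ALAS2 within each list, and both promoters were called in all 3.

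Their promoters differed in base composition. The ALAS1 window had a GC content of 67.2% and 22 CpG dinucleotides. The ALAS2 window had a GC content of 52.8% and 1 CpG, a number at or below which 14.7% of all 35116 RefSeq promoter windows fell. Among promoters of genes with a start peak in all 3 lists, 3.19% had no more than 1 CpG (316 of 9911 promoters). Among promoters of genes with no start peak, 16.0% did (1303 of 8164). The ALAS2 window held GATAA 30 bases before the RefSeq start and, on the opposite strand, 127 bases before it, with TGAGTCA at 47 bases. Both motifs occurred together in 32 of the 9911 promoters of genes called in all 3 lists, or 0.323%, and in 1.43% of promoters of genes called in none. Singly, GATAA was present in 12.9% and TGAGTCA in 2.61% of those 9911 promoters. The pair and the limit of 1 CpG were taken from the ALAS2 window itself, so these shares only describe that window. ALAS1 held neither motif in its window.

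**Figure D2:**
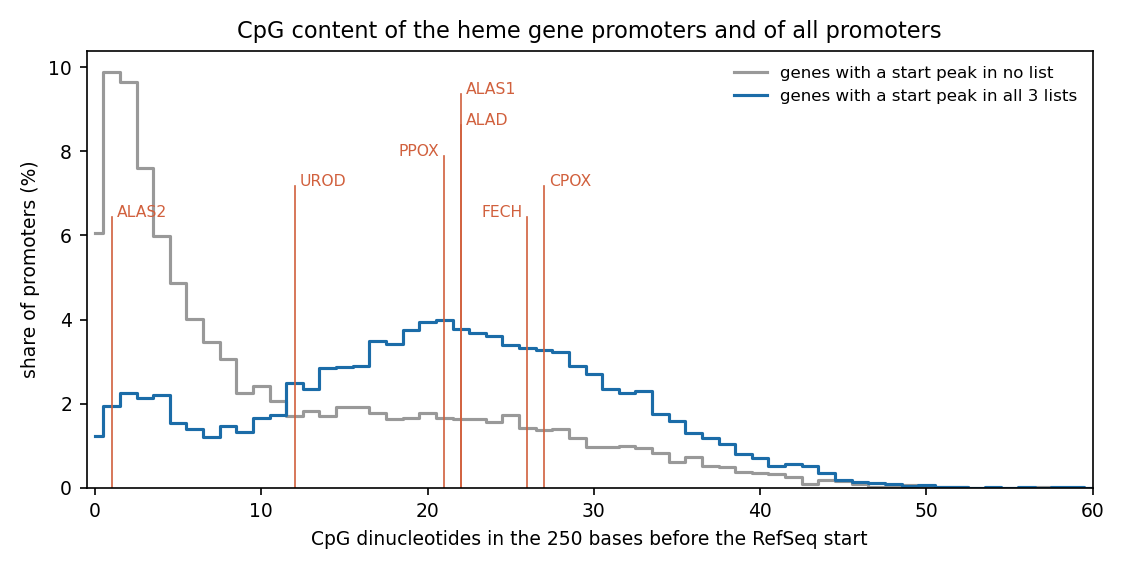
Number of CpG dinucleotides in the 250 bases before the RefSeq start (horizontal axis) against the share of promoters (vertical axis, %), for genes with a start peak in all 3 lists (blue) and in none (grey). Vertical lines mark 7 heme genes: ALAS2 stands at 1, UROD at 12 and the other 5 between 21 and 27.

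A promoter entry was matched for 7 of the 9 members. Taking the most upstream window of each, CPOX was the only member besides ALAS2 with GATAA, at 207 and 125 bases, both on the opposite strand. GATAA was present in the most upstream window of 2 of 7 members, against 20.4% of all 35116 windows, which include several windows for some genes. TGAGTCA was present in 1 of 7, against 4.20%. The letters CCNCNCCC, which cover the site of KLF factors, were present in 5 of 7 members, against 53.4% of windows. TATAA was present in 1 of 7 (ALAS1, opposite strand), against 18.9%, and GCATGCGC, a site of NRF1, in 0 of 7, against 2.63%. Both strands were searched for each motif, and CCNCNCCC matches could overlap each other, as at 167 and 165 bases in ALAS2. PPOX has a second RefSeq window, which held GATAA on the opposite strand at 63 bases and CCNCNCCC at 190 and 74 bases. Over any window of a gene, GATAA was present in 3 of 7 members against 24.2% of 27305 gene symbols, and CCNCNCCC in 6 of 7 against 56.4%. The windows and symbols behind these shares were not limited to protein-coding genes. Over all windows the median CpG count was 11, against 21 in promoters of genes called in all 3 lists. The shares are thus not a like comparison for the members. These matches describe letters in the window and are not evidence of binding.

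ALAD and UROS have annotated downstream starts far enough from the first for peaks at them to be told apart by position. ALAD was called at its upstream promoter in all 3 lists, at 73.4% in PRO-seq 1M, 81.7% in qPRO-seq 1M and 14.0% in qPRO-seq 250k, with centres 107 to 177 bp upstream of the first start. The qPRO-seq 250k peak had a score of 0.384 and a deposited p of 0. Further annotated ALAD starts lay 3931, 4458 and 8778 bp downstream, the nearer pair between the first exon and the second. No list had a peak at any of them, and the nearest peak of any list was 3709 bp away from the closest of these starts. Which of these starts, if any, is the erythroid promoter was not determined. A second RefSeq start of ALAD, at chr9:113401120, lies too close to the first (chr9:113401284) for the limit of 500 bp to separate them.

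UROS was called at its upstream promoter at 69.3%, 76.6% and 66.5%. These peaks also lay within 500 bp of a start of BCCIP, which is transcribed in the opposite direction, so a peak could not be assigned to one gene. The second group of UROS starts, 6653 to 7033 bp downstream, is the one that by its order along the gene corresponds to the erythroid promoter in intron 1. The nearest peak was 6099 bp away in PRO-seq 1M, 6479 bp in qPRO-seq 1M and 6489 bp in qPRO-seq 250k. In these K562 lists, the peaks at ALAD and UROS thus lay at the upstream promoters, shared with BCCIP in the case of UROS. No peak lay within 500 bp of the annotated starts further downstream.

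The same held across the pathway. Joining the annotated starts of each member within 500 bp gave 30 promoter clusters, 9 of them the most upstream of their gene and 21 downstream. The upstream clusters with a peak numbered 9 in PRO-seq 1M, and 8 in each of the quick lists. The downstream clusters with a peak numbered 0 of 21 in each list. Over all protein-coding genes, 7.94%, 9.02% and 5.74% of 47139 downstream clusters had a peak, so the count of 0 is close to the background. The second UROS cluster was the only downstream one with a transcript of the GENCODE basic set, which favours full-length transcripts. A dREG peak is a call past a threshold, so initiation below it was not detectable in these lists.

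**Figure D3:**
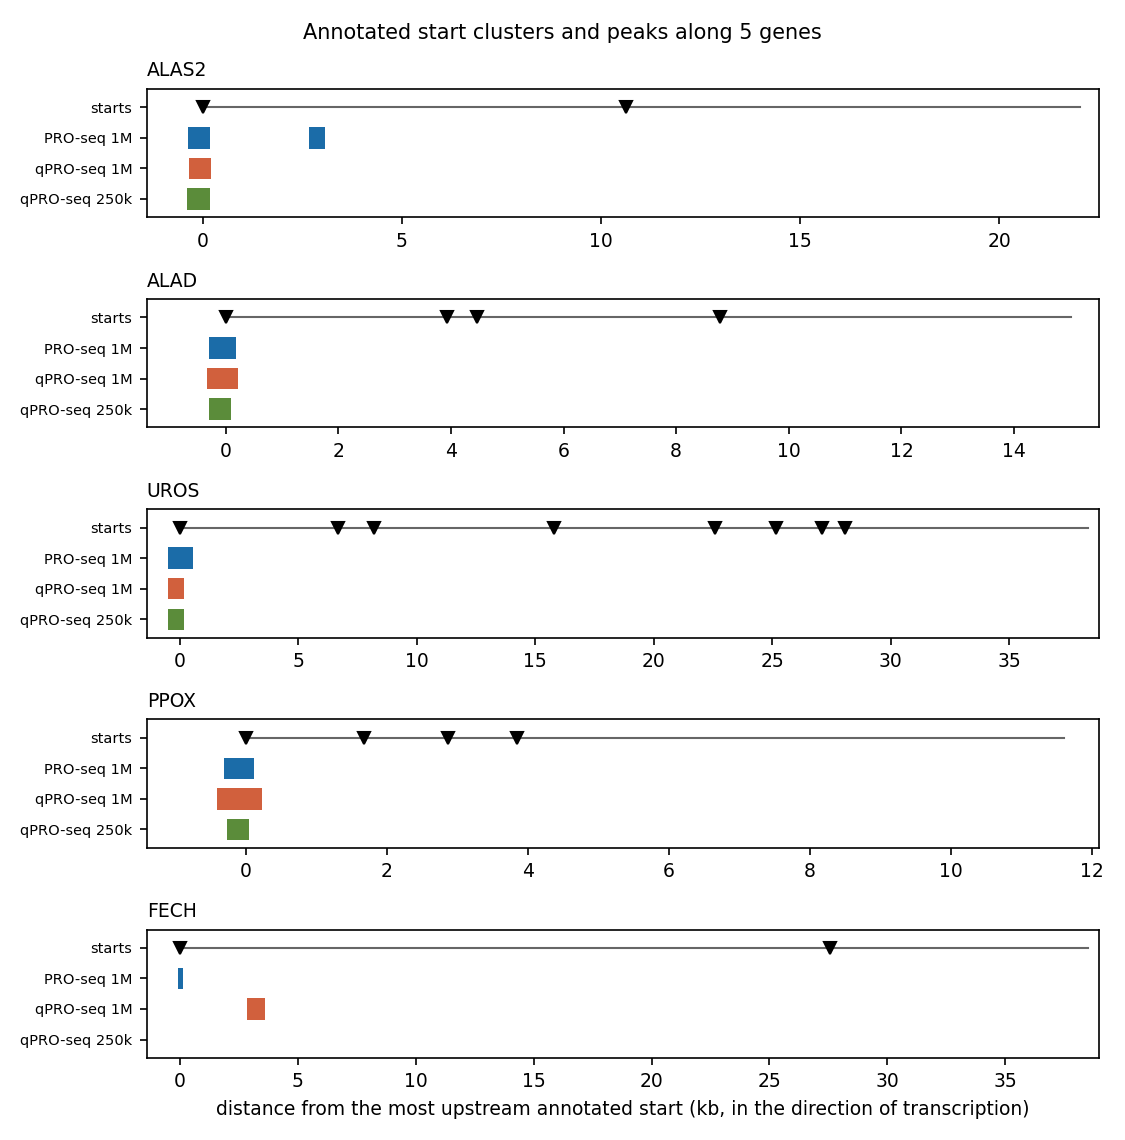
Distance from the most upstream annotated start (horizontal axis, kb, in the direction of transcription) of the annotated start clusters (triangles) and of the peaks of the 3 lists (coloured bars) along ALAS2, ALAD, UROS, PPOX and FECH. Peaks at starts of other genes are left out, and the narrowest bars are widened to stay visible. Bars lie at the first triangle of each gene, apart from 1 PRO-seq 1M peak in ALAS2 and the adjoining pair of qPRO-seq 1M peaks in FECH.

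The enzymes that shape the porphyrin ring spanned the range of percentiles. CPOX, which makes protoporphyrinogen from coproporphyrinogen, had the highest start peak of any member in each list, at 92.3% in PRO-seq 1M, 97.5% in qPRO-seq 1M and 98.3% in qPRO-seq 250k. Its scores were 1.07, 1.13 and 1.06, and its centres lay 87 to 117 bp upstream of the first start. No distal peak lay within 50 kb of CPOX in any list, and its start peak was the only peak of any kind in that window.

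UROD, which removes the carboxyl groups of the acetate side chains, had 2 start regions in every list. The first was centred within 63 bp of the first annotated start and the second 623 to 683 bp downstream, among further annotated UROD starts. In PRO-seq 1M they stood at 65.1% and 56.7%, in qPRO-seq 1M at 89.7% and 90.2%, and in qPRO-seq 250k at 89.3% and 52.3%. The qPRO-seq 1M list held 2 further small peaks beside them, at 34.5% and 0.893%. The first qPRO-seq 250k peak also lay within 500 bp of a start of HECTD3, on the opposite strand.

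PPOX, which oxidises protoporphyrinogen to protoporphyrin, ranked lowest of the members that were called in all 3 lists. Its start peaks stood at 29.8% in PRO-seq 1M, 43.6% in qPRO-seq 1M and 9.74% in qPRO-seq 250k. Of all genes with a start peak in the same list, 8.32%, 12.1% and 3.38% had a highest percentile at or below these. The PPOX window was crowded with peaks at starts of other genes (12 regions), of which the highest-scoring in PRO-seq 1M lay at B4GALT3 (96.0%).

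FECH, the last enzyme, was the member whose promoter was least often called. Its single start peak, in PRO-seq 1M, was 230 bp wide and centred 22 bp downstream of the first start. It stood at 21.6%, with a score of 0.421 and a deposited p of 0. Over the 334 genes with a start peak in PRO-seq 1M alone, the median highest percentile was 22.4% (quartiles 11.4% and 37.3%), so FECH sat at the middle of that class. The qPRO-seq 1M list instead had 2 peaks in intron 1 of FECH, centred 3.29 kb (69.7%) and 3.01 kb (11.4%) downstream of the start. The qPRO-seq 250k list had no peak at FECH itself, and its only peak within 50 kb was at NARS. The FECH promoter window was rich in CpG, with 26 CpG dinucleotides and a GC content of 72.4%.

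A deposited p of 0 occurred at both ends of the score range. Of peaks that scored under 0.5, such a p occurred in 25.8% (PRO-seq 1M), in 23.1% (qPRO-seq 1M) and in 25.4% (qPRO-seq 250k). Among peaks scoring from 0.5 to 0.8, the shares were 0.152%, 0.0934% and 0.196%, and among those above 0.8 they were 34.6%, 48.1% and 13.2%. CPOX, at the high end, had a p of 0 in all 3 lists. The start peaks of FECH in PRO-seq 1M and of ALAD and PPOX in qPRO-seq 250k belonged to the set that scored under 0.5 with a p of 0. With that set left out, FECH had no start peak in any list, and the count of members with a start peak in qPRO-seq 250k was 6 of 9. The share of all protein-coding genes with a start peak was not recomputed without that set, so this count has no background beside it. What a p of 0 stands for at a low score is not given in the sources used here.

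SLC25A37 had its highest-scoring peaks away from its start in every list. The peak at the start itself stood at 62.0% in PRO-seq 1M, 60.7% in qPRO-seq 1M and 23.0% in qPRO-seq 250k. A further peak was centred 875 bp upstream in PRO-seq 1M (82.7%), 825 bp in qPRO-seq 1M (92.0%) and 885 bp in qPRO-seq 250k (70.1%). In the same order its edge lay 565, 405 and 555 bp from the nearest start, so the limit of 500 bp counted it as a start peak in qPRO-seq 1M and as distal in the other lists.

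Within 50 kb of SLC25A37 there were 6 distal peaks in PRO-seq 1M, 11 in qPRO-seq 1M and 5 in qPRO-seq 250k. Several of the qPRO-seq 1M peaks nearly abut a neighbour, so the 11 are not all separate sites. With peaks within 500 bp merged, the distal counts over all members were 6, 14 and 5, in place of 8, 20 and 7. Unmerged counts at least as high as the 6, 11 and 5 of SLC25A37 were found for 290, 143 and 164 genes. These were 1.46%, 0.720% and 0.826% of the 19864 protein-coding genes. Merged counts were not set against all genes. The SLC25A37 gene body is 46.7 kb long, so its window was wider than that of the other members. Per 100 kb of window, SLC25A37 had 4.09, 7.50 and 3.41 distal peaks against means of 0.566, 1.16 and 0.306 over all genes. An equal or higher density was found for 1.50%, 0.861% and 1.05% of genes.

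A pair of distal regions upstream of SLC25A37 stood highest. One, which led in both quick lists, lay 9.9 kb upstream of the start (chr8:23518441-23519200), between genes, at 93.6% in PRO-seq 1M, 99.8% in qPRO-seq 1M and 99.5% in qPRO-seq 250k. The other, which led in PRO-seq 1M, lay 19.8 kb upstream (chr8:23508431-23509590), also between genes, at 97.9%, 97.3% and 86.7%. Both were found in all 3 lists. The region just upstream of the start, described above, was counted with the start regions and is left out of this ranking. Among the remaining distal regions, the highest percentile was in intron 1, 19.1 kb downstream of the start (chr8:23547651-23548220). That region was called in qPRO-seq 1M alone, at 82.9%. The other 7 distal regions reached between 1.84% and 74.3% in the list where each stood highest. One of them, in intron 1 about 1.6 kb downstream of the start, was called in all 3 lists, at 17.9%, 30.5% and 9.90%. In each list the highest-scoring distal call at any member was one of this upstream pair. No peak was called between the intron 1 site and the end of the window beyond the gene.

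**Figure D4:**
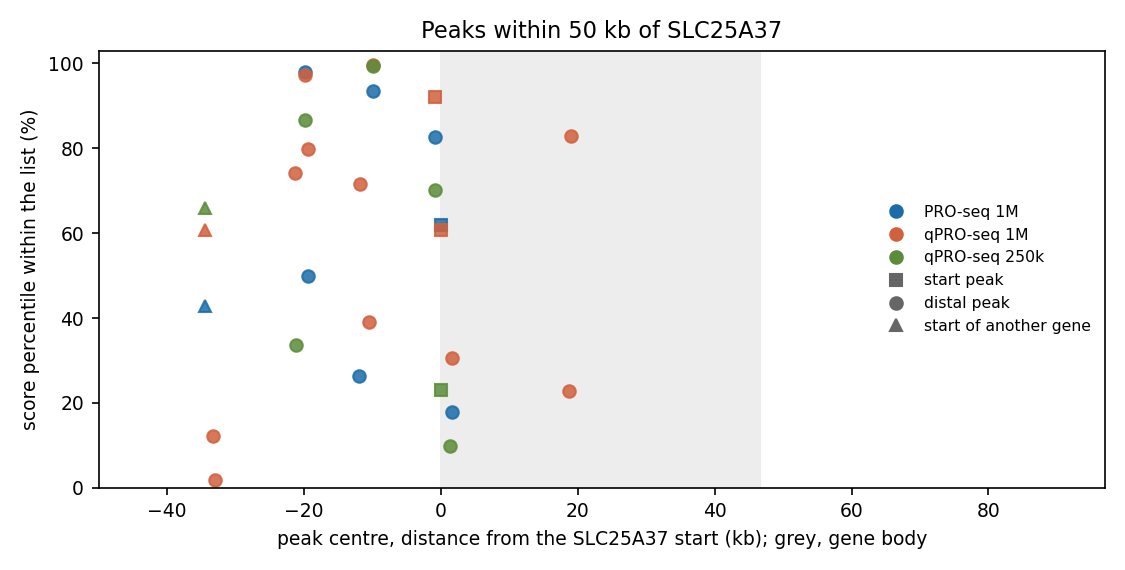
Peaks within 50 kb of SLC25A37 by the distance of their centre from the gene start (horizontal axis, kb; grey, gene body) and score percentile within their list (vertical axis, %), one colour per list and one symbol per kind of peak. At 9.9 kb upstream the qPRO-seq 1M and qPRO-seq 250k points, at 99.8% and 99.5%, lie on top of each other, above the peaks at the start.

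The 8 enzymes had 2 distal peaks in PRO-seq 1M, 9 in qPRO-seq 1M and 2 in qPRO-seq 250k. Per gene this was 0.25, 1.13 and 0.25, against means of 0.784, 1.65 and 0.419 over all protein-coding genes, and no test was made. The medians over all protein-coding genes were 0, 1 and 0. Window width, which grows with gene length, was not taken into account in these means. With SLC25A37 included, over the 9 members there were 8 distal peaks in PRO-seq 1M, 20 in qPRO-seq 1M and 7 in qPRO-seq 250k. Members with at least 1 numbered 3, 5 and 3 of 9, against 40.0%, 61.6% and 26.0% of all protein-coding genes, which is near the background. UROS, CPOX and PPOX had none in any list. ALAS1 had 3, all in qPRO-seq 1M alone: 8.9 kb upstream (78.8%), 42.6 kb downstream in an exon of AC006252.1 (35.2%) and 28.1 kb upstream (0.278%). ALAS2 had a single distal call, in intron 1 at 2.83 kb downstream of the start (chrX:55027991-55028400). It was found in PRO-seq 1M alone, at 3.76%, with a score of 0.326 and a deposited p of 0. Intron 1 of ALAS2 is known to hold an erythroid enhancer bound by GATA1. Whether the called interval is that element was not tested.

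At ALAD, a distal region 10.1 kb upstream, in intron 1 of C9orf43, was called in qPRO-seq 1M (54.9%) and qPRO-seq 250k (16.7%). It lay 509 bp from the nearest annotated start, just outside the limit of 500 bp. The other ALAD region, in intron 5 of BSPRY 32.2 kb downstream of the ALAD start, was called in qPRO-seq 1M alone (22.5%). At UROD, all 3 distal regions lay downstream, inside ZSWIM5. The one that 2 lists shared lay 27.0 kb from the start, overlapped an exon of ZSWIM5 and stood at 39.9% in PRO-seq 1M and 62.2% in qPRO-seq 1M. The other UROD regions were called in qPRO-seq 250k alone (23.7%) and qPRO-seq 1M alone (1.45%).

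List sharing differed between start and distal regions of the members. After peaks of the 3 lists were joined by an overlap of at least 1 bp, 10 of the 11 regions at the members' own starts held a peak of all 3 lists (90.9%). One of the 10 is the SLC25A37 region upstream of the start, counted here because its qPRO-seq 1M peak lay within 500 bp, though its peaks in the other lists were counted as distal. Over all regions near a start of any annotated gene, 52.5% held a peak of all 3 lists. Among the 24 regions at starts of other genes in the members' windows, 13 did (54.2%). Both sets include genes that do not code for protein, so neither is a like comparison for the 9 members. Counted by gene, every member but FECH was called in all 3 lists. Of the 19864 protein-coding genes, 8566 were called in all 3, 8644 in none, and the rest in some lists only. Of the members' 21 distal regions, 3 held a peak of all 3 lists (14.3%), against 16.2% of all distal regions. All 3 of those belonged to SLC25A37. A further 12 of the 21 (57.1%) were called in qPRO-seq 1M alone, against 55.3% of all distal regions, so the sharing of the members' distal regions was near that of distal regions at large.

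The highest-scoring peak in the 50 kb window of each member was also located. The same share over all protein-coding genes was not computed, so the counts describe these windows only and show no trait of the members. The highest-scoring peak of the window lay at a start of the member for 3 members in PRO-seq 1M (ALAS1, UROS and CPOX) and for the same 3 in qPRO-seq 1M. In qPRO-seq 250k UROD joined them. The UROS peaks, and the UROD peak in qPRO-seq 250k, also lay at starts of BCCIP and HECTD3. Among these members, only ALAS1 and CPOX thus had a highest peak that was at their own start alone. At SLC25A37 the highest peak was distal in every list, with no annotated start of any gene within 500 bp. ALAD lay beside the shared start of C9orf43 and POLE3, at 99.1%, 97.2% and 98.1%, and ALAS2 beside the start of APEX2, at 78.2%, 86.6% and 63.0%.

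Other genes of heme transport, regulation and breakdown were read from a list of 14. Start peaks were found for 12 of 14 in PRO-seq 1M (52.9% of all genes), 12 in qPRO-seq 1M (54.5%) and 9 in qPRO-seq 250k (44.0%), and 9 had one in all 3 lists (43.1%). HMOX1 and HMOX2, the heme oxygenases that open the ring, had no start peak in any list. The 3 that were absent at 250k cells alone stood low or in the middle of the other lists. ABCB6 stood at 8.63% in PRO-seq 1M and 43.1% in qPRO-seq 1M, HEBP1 at 42.1% and 24.0%, and SLC48A1 at 56.3% and 51.5%.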

How the data were processed

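Values came from 3 peak lists, 1 for each group of 2 libraries. Per the submitters' processing notes, fastp 0.20.0, Bowtie2 2.3.5.1, UMI-tools and deepTools 3.1.3 were used, with build GRCh38. The version and thresholds of dREG and the pooling of replicates are not given in the sources used here. The score and the p-value of each peak are as the authors deposited them, and whether the p-value was adjusted is not given there. Interval and centre positions are as deposited, and starts were shifted to count from 1. The lists hold no read counts, so depth is unknown.

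Peaks on chromosomes 1 to 22 and X were matched to GENCODE release 29 in Python 3.11.15 with pandas 2.3.3 and checked on simulated data. Start peaks, promoter clusters, distal peaks and joined regions were counted as the text defines them, for the members and for all protein-coding genes. Promoter sequences and base composition came from RefSeq. The members and lists were chosen with earlier results of these data known. All 9 members were named, with up to 3 distal regions each by highest percentile, and markers and other heme genes came from lists drawn up for this purpose, without a few genes that are not reported here. Alternatives changed the start window, the distance, the p limit, the transcripts, the overlap, peak merging and list size.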

Additional observations from a re-analysis of the deposited data

How the results depend on the processing

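Of 63 counts recomputed under other settings, 57 stayed within 1.5 times the value given above. The 6 that moved were all counts of distal peaks, and the cause was not tested. At equal list sizes (the 15562 highest-scoring peaks of each list), PRO-seq 1M had 5 distal peaks in place of 8 and qPRO-seq 1M had 9 in place of 20. Within 20 kb, qPRO-seq 1M had 13. For qPRO-seq 250k, with 7 distal peaks, the count was 4 when no start was allowed within 1000 bp, 4 at a p of at most 0.01 and 11 within 100 kb. Of 143 recomputed start-peak percentiles, 9 moved by more than 1.5 times. At equal list sizes, where a percentile is taken within a shorter list, ALAS2 and UROS in qPRO-seq 1M stood at 25.2% and 42.7% in place of 69.5% and 76.6%, and SLC25A37 in PRO-seq 1M at 39.6% in place of 62.0%. At a p of at most 0.01, FECH and PPOX in PRO-seq 1M stood at 12.4% and 19.0%, and ALAD and PPOX in qPRO-seq 250k at 7.39% and 4.32%. The window of 1000 bp took in the upstream SLC25A37 peak in qPRO-seq 250k (70.1% in place of 23.0%), and asking for a start inside the peak removed it in qPRO-seq 1M (60.7% in place of 92.0%). Start peaks were lost for SLC25A37 in qPRO-seq 250k at a p of at most 0.01, and at equal list sizes for PPOX and FECH in PRO-seq 1M and for PPOX in qPRO-seq 1M. An alternative chosen after seeing the data left out peaks that scored under 0.5 with a p of 0, and FECH in PRO-seq 1M and ALAD and PPOX in qPRO-seq 250k then lost their start peaks. No paired analysis was possible because each group has 1 list and no values per replicate.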
